A study of Mus musculus with 9 samples.

Results

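Complement in the substantia nigra was read from 8 genes: C1qa, C1qb, C1qc, C2, C4b, C3ar1, C5ar1 and Serping1. All probe sets whose annotated symbol was one of these genes were taken, which gave 11 of the 45037 probe sets measured and 8 of the 17097 genes named by a probe set of their own. C3ar1 had 3 probe sets, C5ar1 had 2 and each of the other genes had 1. A probe set is a group of short probes for 1 transcript. Swiss Webster mice received saline, 1 mg/kg methylphenidate (MPH) or 10 mg/kg MPH, and 3 arrays were run for each group, 9 arrays in all. MPH is a stimulant that blocks the transporters for dopamine and noradrenaline. Injections into the abdominal cavity began at the end of the fourth postnatal week and followed a school-day schedule for 3 months, and the substantia nigra was dissected after a washout of a week. Swiss Webster is an outbred stock. Whether each array holds RNA of a separate mouse is not stated, so p-values measure the spread between arrays. Each dose given here is the one on the deposited label. The gene lists published with these arrays give the doses the other way round, so which array group received which dose is unsettled, while the comparison of the 6 MPH arrays with saline does not depend on it.

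Complement is a cascade of plasma and tissue proteins that marks targets for removal. C1q, built from the chains encoded by C1qa, C1qb and C1qc, recognises a target and starts the classical pathway, in which C4 and C2 are cut and join into the enzyme that cleaves C3. The fragments C3a and C5a released further down act on the receptors C3ar1 and C5ar1, and Serping1, the C1 inhibitor, blocks the proteases that C1q activates. In the brain C1q is made mainly by microglia, which use it with C3 to tag and remove synapses, whereas astrocytes make much of the C4.

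The genes of the C1q chains follow each other on chromosome 4 in the order C1qb, C1qc, C1qa (RefSeq, GRCm38.p6), with Ephb2 before and Epha8 after them. On chromosome 17, C2 stands between Cfb and Zbtb12, and C4b between Tnxb and Cyp21a1. The bases before the start sites of C1qb and C1qc are shown because these chains are made together, and their values are set side by side further on. Both genes are on the minus strand, and each run holds the 250 bases before the start, at chr4:136886201-136886450 for C1qb and at chr4:136892915-136893164 for C1qc. Capitals mark matches on either strand to GAGGAA or GGAAGT, 6 letters each, which are cores bound by ETS family factors such as the myeloid factor PU.1. These letters were chosen after the sequences were seen, and in C1qc the matches overlap.

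C1qb promoter: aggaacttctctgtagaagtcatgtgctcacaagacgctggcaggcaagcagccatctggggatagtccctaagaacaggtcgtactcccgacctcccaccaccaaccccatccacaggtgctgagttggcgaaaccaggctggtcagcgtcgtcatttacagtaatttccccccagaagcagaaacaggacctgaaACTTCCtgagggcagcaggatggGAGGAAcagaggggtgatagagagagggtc
C1qc promoter: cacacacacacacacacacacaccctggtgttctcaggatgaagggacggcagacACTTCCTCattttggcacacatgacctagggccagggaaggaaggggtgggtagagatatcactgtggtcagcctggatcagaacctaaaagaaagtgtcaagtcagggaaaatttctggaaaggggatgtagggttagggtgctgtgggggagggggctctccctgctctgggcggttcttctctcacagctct

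Both promoters held 1 match to each set of letters. Of 32851 mouse promoters of the same length, 23.3% held GAGGAA, 19.7% held GGAAGT and 36.7% held either. RefSeq promoters were at hand for 4 of the 8 genes. That of C3ar1 held 0 matches, and that of C5ar1 held 2 to GGAAGT and 0 to GAGGAA.

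Values are log2 intensities, on which a difference of 1 is a doubling, and levels of different probe sets cannot be compared with each other. The median of all probe sets was 4.51. The 40 background controls had a median of 3.01 and a 95th percentile of 3.58. Markers of dopamine neurons were well above background in the tissue, with Th at a mean of 10.69 and Slc6a3, the dopamine transporter, at 11.85, and all 10 were lower in both MPH groups than in saline, with medians of -0.59 at 1 mg/kg and -0.50 at 10 mg/kg. The arrays also differed in other cells. The mean of 8 markers of fibroblasts and meninges was 5.10 to 5.96 in saline, 5.67 to 6.22 at 1 mg/kg and 5.79 to 7.22 at 10 mg/kg, and all 8 had positive differences in both MPH groups. Its highest value was on 10 mg/kg replicate 1 and its lowest on saline replicate 1. The mean of 14 microglia markers ran the other way on these arrays, from 7.06 on 10 mg/kg replicate 1 to 7.57 on saline replicate 1. The mean of 7 oligodendrocyte markers was 10.61 to 10.71 in saline, 10.36 to 10.80 at 1 mg/kg and 10.19 to 10.51 at 10 mg/kg, where it did not overlap with saline. That of 4 blood markers was 8.04 to 8.22 in saline, 8.07 to 8.16 at 1 mg/kg and 8.21 to 8.51 at 10 mg/kg. The 3' minus 5' difference of the Actb controls, which grows as RNA degrades, was 0.882 to 0.934 in saline and 1.027 to 1.187 in the MPH arrays, while that of Gapdh was 0.231 to 0.387 and 0.224 to 0.409. The part of these markers and of RNA quality in the results was not tested.

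Each MPH group was set against saline to ask how the drug changed the transcripts of the nigra. In limma fits with the replicate number as a block, 0 of the 11 complement probe sets passed an adjusted p of 0.05 in any comparison, beside 0 of 45037 probe sets in all (0%). At an unadjusted p under 0.05, 2 of 11 passed at 1 mg/kg, C2 higher and C3ar1 lower, beside 10.3% of all probe sets. At 10 mg/kg 3 passed, C2 higher and C1qc and C3ar1 lower, beside 9.59%. Between the doses 0 passed, beside 6.39%, and with both MPH groups against saline 2 passed, C2 and C3ar1, beside 11.2%. Values that did not overlap between the groups were found for 2 of 11 at 1 mg/kg (23.1% of all probe sets), 4 at 10 mg/kg (23.4%), 3 between the doses (18.2%) and 2 for both MPH groups (9.95%). With 11 probe sets, of which 5 share a gene with another, each of these counts is within 2 probe sets of what the share over all probe sets would give. Without the block, 0.12%, 0.255%, 0% and 0.46% of all probe sets passed the adjusted p in the same order of comparisons, and again 0 of the 11 complement probe sets. A pair of probe sets that the published lists assign to C2 has no symbol in the annotation used. These counts of complement probe sets leave that pair out. Without 10 mg/kg replicate 1, 3 probe sets passed the unadjusted p at 1 mg/kg and 1 at 10 mg/kg. Without saline replicate 1 the counts were 2 and 0. Over all 9 arrays left out in turn they ran from 1 to 3 and from 0 to 4. In whole tissue, fewer cells of a type and less RNA per cell cannot be told apart.

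**Figure D1:**
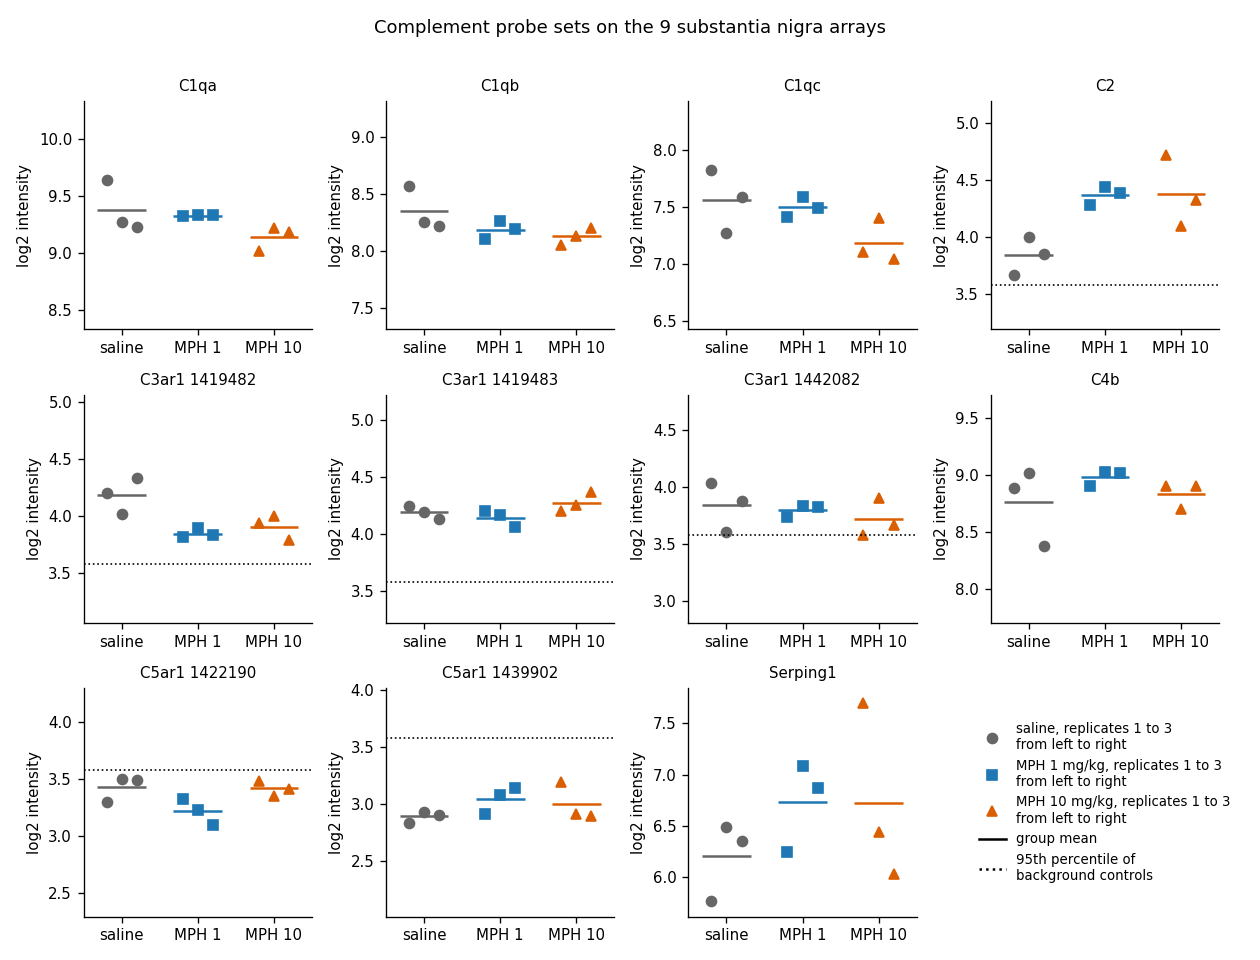
Log2 intensity of the 11 complement probe sets, one panel each, on the 9 arrays, with saline in grey, MPH 1 mg/kg in blue and MPH 10 mg/kg in orange. Points are arrays in the order of their replicate numbers, bars are group means, the dotted line is the background limit of 3.58, and each panel spans at least 2 log2 units. C2 was higher on all 6 MPH arrays than on the saline arrays, and both C5ar1 probe sets lay below the background limit on every array.

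The C1q chains were well above background on all arrays. C1qa was 9.64, 9.27 and 9.23 in saline, 9.32, 9.33 and 9.33 at 1 mg/kg, and 9.02, 9.22 and 9.18 at 10 mg/kg. Saline replicate 1 was above all other arrays, the 1 mg/kg arrays hardly differed (SD 0.0079), and the 10 mg/kg arrays were all below both other groups. The difference from saline was -0.24 at 10 mg/kg (standard error 0.12, limma adjusted p = 0.557) and -0.052 at 1 mg/kg (adjusted p = 0.905). Without saline replicate 1 these became -0.079 and 0.11.

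C1qb was 8.57, 8.25 and 8.22 in saline, 8.10, 8.26 and 8.19 at 1 mg/kg, and 8.05, 8.13 and 8.20 at 10 mg/kg. The saline and 10 mg/kg arrays did not overlap, with saline replicate 3 just above 10 mg/kg replicate 3, and the 1 mg/kg arrays fell among both. Its differences from saline were -0.22 at 10 mg/kg (standard error 0.11, limma adjusted p = 0.566) and -0.17 at 1 mg/kg (adjusted p = 0.635), and without saline replicate 1 they were -0.07 and -0.016.

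C1qc was 7.82, 7.27 and 7.59 in saline, 7.41, 7.59 and 7.49 at 1 mg/kg, and 7.10, 7.40 and 7.04 at 10 mg/kg. The saline arrays spanned the widest range, and a 10 mg/kg array, replicate 2, lay above saline replicate 2. At 10 mg/kg the difference from saline was -0.38 (95% interval -0.75 to -0.010, limma adjusted p = 0.516, with an unadjusted p under 0.05), and it was -0.21 without saline replicate 1 and -0.60 without saline replicate 2. At 1 mg/kg it was -0.065 (95% interval -0.43 to 0.30).

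C2, the protease that forms the C3-cleaving enzyme with C4, was dim but above the background limit on all arrays. It was 3.67, 4.0 and 3.85 in saline, 4.28, 4.44 and 4.39 at 1 mg/kg, and 4.72, 4.10 and 4.33 at 10 mg/kg. Every MPH array exceeded every saline array, and the highest value was on 10 mg/kg replicate 1. The difference from saline was 0.53 at 1 mg/kg (standard error 0.17, limma adjusted p = 0.417) and 0.54 at 10 mg/kg (adjusted p = 0.441). For both MPH groups together it was 0.53, or 1.45-fold (95% interval 0.20 to 0.87 on the log2 scale, limma adjusted p = 0.336, and 0.0806 without the block). With 6 arrays against 3, an exact permutation test gave a two-sided p of 0.0119, the smallest it can give. In this comparison 9.95% of all probe sets had no overlap. Leaving out 10 mg/kg replicate 1 lowered the 10 mg/kg difference to 0.31, and leaving out saline replicate 1 gave 0.38 at 1 mg/kg and 0.39 at 10 mg/kg. C2 also stands in a gene list that the study chose on these same arrays. That list assigns to C2 a pair of probe sets that were not used here, because the platform annotation gives them no symbol. The list comes from the same arrays, so its direction for C2 is no independent evidence.

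C4b encodes the C4 protein, the partner of C2. It was 8.89, 9.02 and 8.38 in saline, 8.90, 9.03 and 9.02 at 1 mg/kg, and 8.90, 8.70 and 8.90 at 10 mg/kg. Saline replicate 3 was well below the other arrays, and the groups overlapped. The differences from saline were 0.22 (95% interval -0.15 to 0.58) and 0.069 (95% interval -0.29 to 0.43), and without saline replicate 3 they were -0.00091 and -0.15. The neighbouring copy C4a is nearly identical in sequence, and how far the C4b probes read it is unknown. C4a was not analysed here.

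C3ar1, the receptor for C3a, was carried by 3 dim probe sets, with means of 3.79 to 4.20, that differed among themselves. Probe set 1419482_PM_at was 4.21, 4.02 and 4.34 in saline, 3.82, 3.90 and 3.84 at 1 mg/kg, and 3.94, 4.0 and 3.79 at 10 mg/kg. All MPH arrays were below all saline arrays, and saline replicate 2 was nearest to 10 mg/kg replicate 2. The differences from saline were -0.34 at 1 mg/kg (limma adjusted p = 0.416) and -0.28 at 10 mg/kg (adjusted p = 0.485), and without saline replicate 3 they were -0.23 and -0.17. The difference for both MPH groups was -0.31 (95% interval -0.52 to -0.10, limma adjusted p = 0.34, and 0.0853 without the block), with an exact two-sided permutation p of 0.0119 for 6 arrays against 3. That is the smallest p this test can give, and 9.95% of all probe sets had no overlap in this comparison. The brightest probe set, 1419483_PM_at, was 4.13 to 4.24 in saline, 4.06 to 4.20 at 1 mg/kg and 4.20 to 4.37 at 10 mg/kg, with a difference of 0.019 for both MPH groups (95% interval -0.15 to 0.19). Probe set 1442082_PM_at ran from 3.58 to 4.04 over the 9 arrays and differed by -0.081 (95% interval -0.35 to 0.19). Values that did not overlap between saline and MPH were thus seen in 1 of the 3 probe sets. C5ar1, the receptor for C5a, had 2 probe sets with means of 3.35 and 2.98, below the background limit of 3.58, so its level could not be read. Its brighter probe set was 3.30 to 3.50 in saline, 3.09 to 3.32 at 1 mg/kg and 3.35 to 3.48 at 10 mg/kg. The other was 2.84 to 2.93 in saline, 2.92 to 3.14 at 1 mg/kg and 2.90 to 3.20 at 10 mg/kg, and at 1 mg/kg their differences from saline had opposite signs, -0.21 and 0.15.

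Serping1, the C1 inhibitor, varied most between the arrays, with a range of 1.94 compared with 0.314 to 1.05 for the other 10 probe sets. It was 5.76, 6.49 and 6.35 in saline, 6.24, 7.08 and 6.87 at 1 mg/kg, and 7.70, 6.44 and 6.03 at 10 mg/kg. The highest value was on 10 mg/kg replicate 1 and the lowest on saline replicate 1, the arrays with the most and the least fibroblast marker signal, and the groups overlapped. The differences from saline were 0.53 at 1 mg/kg (95% interval -0.49 to 1.55, limma adjusted p = 0.704) and 0.52 at 10 mg/kg (95% interval -0.50 to 1.54, adjusted p = 0.714). These intervals use a spread shared by all groups. In fits of only the groups compared, the standard errors were 0.079 at 1 mg/kg and 0.436 at 10 mg/kg (limma adjusted p = 0.383 and 0.75). Without 10 mg/kg replicate 1 the 10 mg/kg difference was -0.20. Without saline replicate 1 the differences were 0.19 at 1 mg/kg (adjusted p = 0.924) and 0.18 at 10 mg/kg (adjusted p = 0.948).

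**Figure D2:**
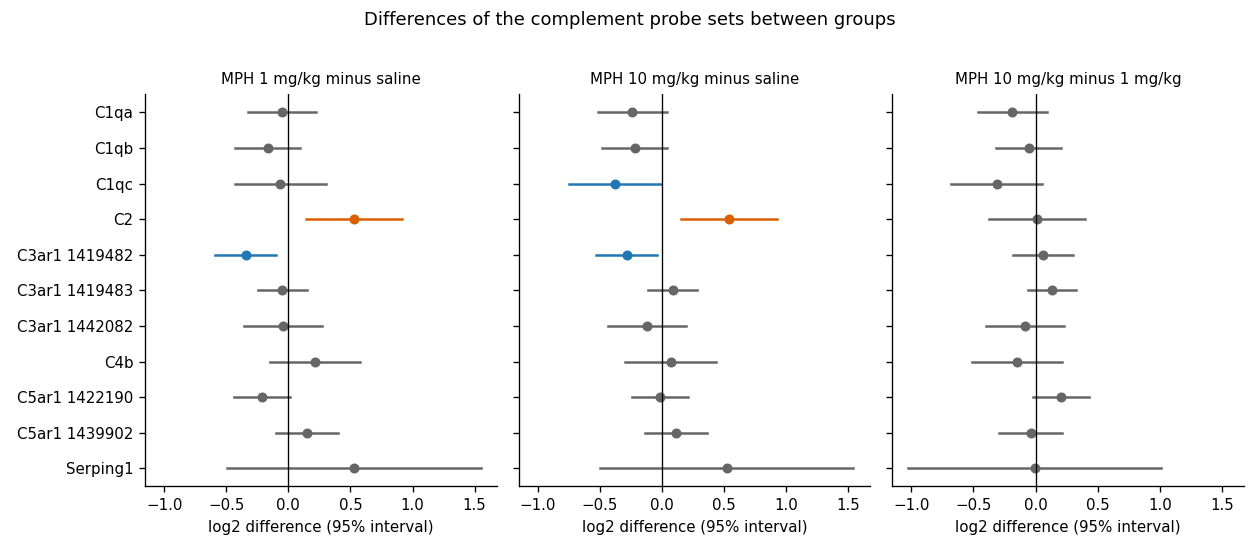
Log2 differences of the 11 complement probe sets in 3 comparisons, with points for the limma estimates and lines for 95% intervals, orange where the interval lies above 0, blue where it lies below 0 and grey otherwise. C2 lay above 0 against saline at both doses, 1 of the 3 C3ar1 probe sets lay below 0 at both doses and C1qc at 10 mg/kg, and the widest intervals were those of Serping1.

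The 10 mg/kg arrays were then set against the 1 mg/kg arrays to see whether the doses differed. No member passed an unadjusted p of 0.05. C1qc was -0.31 (95% interval -0.68 to 0.055) and C1qa -0.19 (95% interval -0.46 to 0.089), both without overlap between the dose groups, and C5ar1 was 0.20 (95% interval -0.024 to 0.43) within the background range. C2 differed by 0.012 between the doses (95% interval -0.37 to 0.40) and C4b by -0.15 (95% interval -0.51 to 0.21). Serping1 differed by -0.0064 (95% interval -1.03 to 1.01), and by -0.73 without 10 mg/kg replicate 1 (limma adjusted p = 0.829). These intervals leave room for differences between the doses as large as those against saline for the C1q chains, C4b and Serping1.

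The C1q chains were compared with each other over the 9 arrays, since their products assemble into 1 protein. Pearson's r was 0.871 for C1qa with C1qb, 0.816 for C1qa with C1qc and 0.684 for C1qb with C1qc (exact permutation p = 0.0095, 0.00663 and 0.0362 over 9 arrays; 0.0142, 0.0142 and 0.0362 adjusted over the 3 pairs). Spearman's rho was 0.65, 0.783 and 0.567 (exact permutation p = 0.0666, 0.0172 and 0.121, or 0.0999, 0.0516 and 0.121 when adjusted over the pairs). Without saline replicate 1 and 10 mg/kg replicate 1, the arrays farthest from the median, r was 0.045, 0.574 and 0.090. The relations of C1qb with C1qa and with C1qc therefore rested on these arrays, and that of C1qa with C1qc was weaker without them. After the group means were removed r was 0.908, 0.656 and 0.584. Saline replicate 1 and 10 mg/kg replicate 1 share a replicate number. Over all probe sets their deviations from the group means correlated at -0.626. The permutations took no account of the replicate number.

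Each of the 8 genes was then set against the mean of each of 8 cell type marker lists, 64 relations in all. None of these lists holds a complement member. C1qa followed the 14 microglia markers with r = 0.877 and rho = 0.467 (exact permutation p = 0.0127 and 0.213 over 9 arrays, 0.116 and 0.682 adjusted over the 64 relations), as did C1qb with r = 0.721 and rho = 0.283 (exact permutation p = 0.0565 and 0.463, adjusted 0.278 and 0.813). For C1qc r was 0.548 and rho 0.15 (exact permutation p = 0.119 and 0.708, adjusted 0.328 and 0.888). Without the arrays farthest from the median of the marker mean, r was 0.140 for C1qa, -0.561 for C1qb and -0.498 for C1qc, so that the positive relation rested on saline replicate 1 and 10 mg/kg replicate 1. These arrays share a replicate number, which the permutations did not take into account. C1qa also ran against the 4 blood markers, at r = -0.715 and rho = -0.867 (exact permutation p = 0.0294 and 0.00451, adjusted 0.164 and 0.0962), and at r = -0.851 without the arrays farthest from their median. The microglia markers themselves had medians of -0.06 at 1 mg/kg and -0.19 at 10 mg/kg, with 6 and 3 of 14 higher than saline, compared with 43.7% and 44% of all genes. At 10 mg/kg 1 of them passed the unadjusted p upwards and 2 downwards, 21.4% of the list beside 10.2% of all genes, and 0 passed at 1 mg/kg. With the microglia mean as a covariate, a fit chosen with the data in view, the 10 mg/kg differences of C1qa, C1qb and C1qc were -0.10, -0.13 and -0.31.

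**Figure D3:**
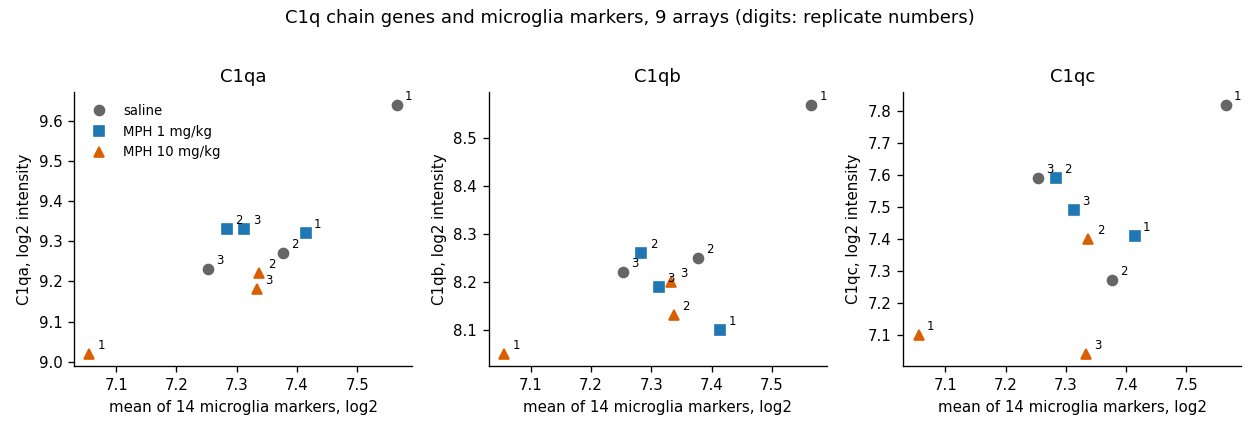
Log2 intensity of C1qa, C1qb and C1qc on the vertical axes against the mean log2 intensity of 14 microglia markers on the horizontal axes, 1 point for each of the 9 arrays, with replicate numbers beside the points. Saline replicate 1 and 10 mg/kg replicate 1 stand at the ends in each panel, and among the other 7 arrays C1qb and C1qc show no positive slope.

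Serping1 followed the 8 markers of fibroblasts and meninges, with r = 0.95 and rho = 0.933 (exact permutation p = 6.89e-05 and 0.00075 over 9 arrays, 0.00441 and 0.048 adjusted over the 64 relations). It was the 1 relation of the 64 to pass the adjustment. Within the groups r was 0.985, and without the arrays farthest from the median it was 0.876. C2 followed the same markers with r = 0.839 and rho = 0.817 (exact permutation p = 0.00439 and 0.0108, adjusted 0.0654 and 0.173), and with r = 0.456 without those arrays. Serping1 ran against the microglia markers, at r = -0.859 and rho = -0.683 (exact permutation p = 0.00453 and 0.0503, adjusted 0.0654 and 0.402), and at r = -0.397 without those arrays. It also followed the markers of perivascular and peripheral macrophages, at r = 0.848 and rho = 0.867 (exact permutation p = 0.00511 and 0.00451, adjusted 0.0654 and 0.0962), and those of endothelial cells, at r = 0.853 and rho = 0.717 (exact permutation p = 0.00391 and 0.0369, adjusted 0.0654 and 0.337). Without the arrays farthest from the median of each marker mean, r was 0.837 and 0.626. Of the 8 macrophage markers 5 had a mean above the background limit. Mrc1 and Pf4 ranged by 1.19 and 1.37 over the arrays, and the other macrophage markers by 0.188 to 0.412. The endothelial mean ran only from 7.53 to 7.70. Serping1 and C2 ran against the oligodendrocyte markers, at r = -0.787 and -0.753 (exact permutation p = 0.0112 and 0.0193, adjusted 0.116 and 0.154). Without the arrays farthest from their median, these were -0.624 and -0.905. C2 also ran against the microglia and dopamine neuron markers, at r = -0.731 and -0.722 (exact permutation p = 0.025 and 0.0287, both adjusted 0.164). Without the arrays farthest from each median, these were 0.139 and -0.65. After the group means were removed they were -0.814 and 0.386, so C2 ran against the dopamine neuron markers between the groups and not within them. With the fibroblast mean as a covariate, likewise chosen with the data in view, the differences of Serping1 from saline were 0.082 at 1 mg/kg and -0.30 at 10 mg/kg, whereas those of C2 were 0.38 (limma adjusted p = 0.267) and 0.27 (adjusted p = 0.616). The fibroblast mean moved with both the group and these genes, and its part in their differences was not tested further.

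**Figure D4:**
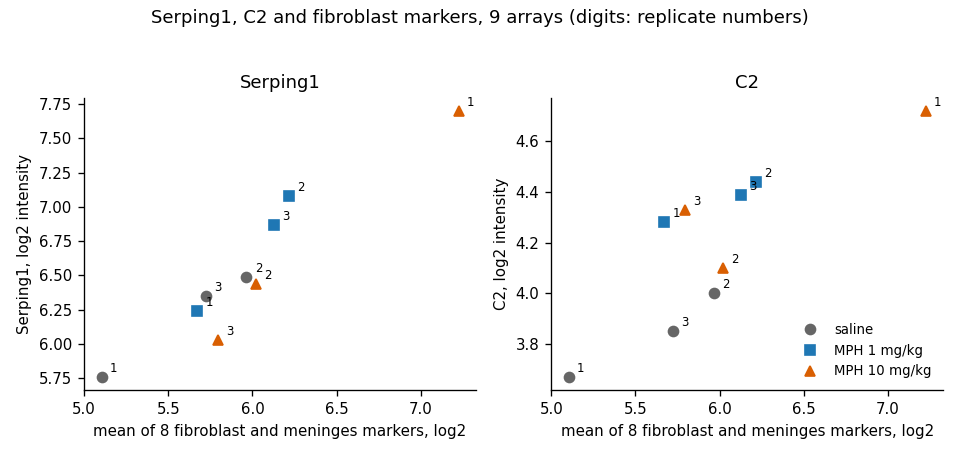
Log2 intensity of Serping1 and C2 on the vertical axes against the mean log2 intensity of 8 fibroblast and meninges markers on the horizontal axes, 1 point for each of the 9 arrays, with replicate numbers beside the points. Serping1 is higher where the marker mean is higher, and for C2 the saline arrays lie below the MPH arrays of like marker mean.

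The rest of the complement system was followed in a list of 55 symbols, older symbols included, of which 40 genes were measured and 20 of those had a mean above the background limit. Their median difference from saline was 0.024 at 1 mg/kg and 0.013 at 10 mg/kg, compared with -0.021 and -0.020 over all 17097 genes. At an unadjusted p under 0.05, 3 were higher and 1 lower at 1 mg/kg, and 4 were higher and 2 lower at 10 mg/kg, that is 10% and 15% of the list beside 10.7% and 10.2% of all genes. None passed the adjusted p. Cd93, a surface protein of endothelium and myeloid cells once taken for a C1q receptor, was 6.51 to 6.58 in saline and 6.77 to 7.01 on the MPH arrays, which did not overlap, with differences of 0.33 and 0.28 (standard error 0.077, limma adjusted p = 0.378 and 0.424). Cd46, a cofactor for the cleavage of C3b and C4b, was 4.05 to 4.26 in saline and 3.75 to 3.89 on the MPH arrays, with differences of -0.31 and -0.34 (adjusted p = 0.399 and 0.424). Cd55, which speeds the decay of the C3-cleaving enzyme, was 4.92 to 4.93 in saline, 5.01 to 5.31 at 1 mg/kg and 4.79 to 4.93 at 10 mg/kg. Masp2, the protease of the lectin pathway that cuts C4 and C2, was 3.64 to 3.85 in saline, 3.65 to 3.92 at 1 mg/kg and 3.95 to 4.27 at 10 mg/kg. Cfi, C8b, Cfhr2 and Vsig4, the other genes of this list named by the smallest p, had means of 3.07 to 3.29, under the background limit. Clu, which keeps the terminal complex off membranes, had a mean of 13.06, and none of its arrays was above 13.13. C3 was not analysed here.

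**Figure D5:**
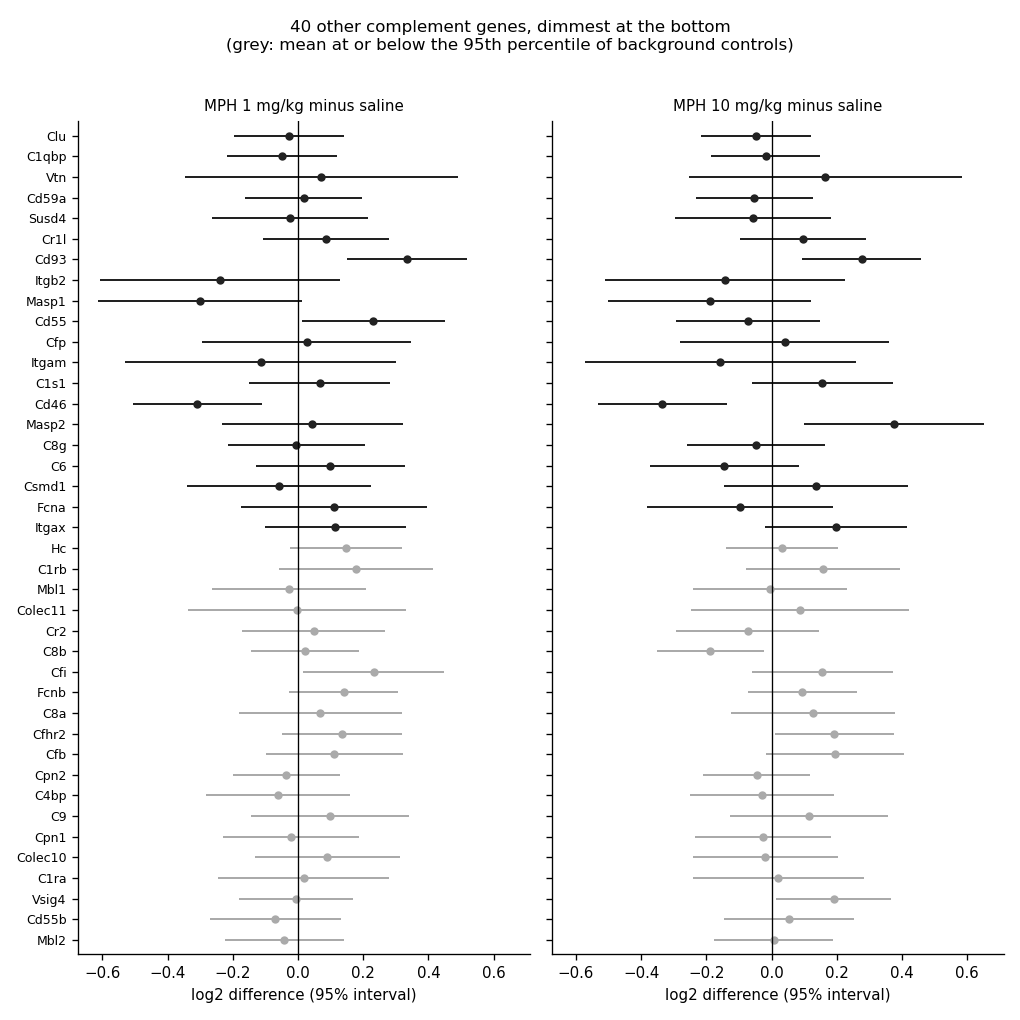
Log2 differences from saline of 40 other complement genes at 1 mg/kg (left) and 10 mg/kg (right), with limma 95% intervals, ordered by mean intensity with the brightest at the top and in grey where the mean is at or below the background limit of 3.58. Most intervals cross 0, and Cd93 and Cd46 are the genes above that limit whose intervals miss 0 at both doses.

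The genes beside C2 and C4b were read to see whether C2 moved with its surroundings. Of 24 listed neighbours in the MHC class III region 17 were measured, and their median differences were -0.048 at 1 mg/kg and -0.0058 at 10 mg/kg. At an unadjusted p under 0.05, 0 were higher and 3 lower at 1 mg/kg (Skiv2l, Nelfe and Stk19), and 1 was higher and 2 lower at 10 mg/kg (Hspa1b, and Nelfe and Fkbpl), 17.6% of the list at each dose beside 10.7% and 10.2% of all genes. None passed the adjusted p. Nelfe, which encodes a subunit of the factor that pauses RNA polymerase and stands next to Cfb, was 7.55 to 7.60 in saline and 7.18 to 7.38 on the MPH arrays, the opposite direction to C2 (differences -0.24 and -0.31, limma adjusted p = 0.418 and 0.424). Skiv2l, an RNA helicase that serves the exosome, was 6.45 to 6.53 in saline, 5.90 to 6.11 at 1 mg/kg and 6.12 to 6.42 at 10 mg/kg. Cfb, the counterpart of C2 in the alternative pathway and its neighbour, was 2.95 to 3.37 over all arrays, within background. Hspa1b, an inducible chaperone, ran from 7.84 to 10.28 and differed by 1.28 at 10 mg/kg (standard error 0.54, limma adjusted p = 0.516), which was 0.71 without 10 mg/kg replicate 1 and 1.95 without 10 mg/kg replicate 2. Of the 5 measured neighbours of the C1q genes, 0 passed an unadjusted p of 0.05 in either comparison with saline, beside the same shares of all genes.

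The genes whose values were most like those of C2 over the 9 arrays were 4933406K04Rik, Cdca3, Lamp2, Padi4 and Ehmt1, at Pearson's r of 0.98 to 0.99. Of these only Lamp2, a lysosomal membrane protein, and Ehmt1, a histone methyltransferase, had means well above background, at 9.58 and 9.24. Those most like C1qb were Spaca9, Lrmda, Pde6a, Tmem268 and Rps10, at r of 0.946 to 0.986 and with means of 2.68 to 4.36. They were picked from all single-gene probe sets as the highest r, and C1qa and C1qc were not among them.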

How the data were processed

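Total RNA of the substantia nigra was measured on Affymetrix HT MG-430 PM arrays, 3 for each group. The deposited values are log2 intensities made by the authors with Robust Multichip Average (background correction, quantile normalization, summarization), with no version given in the sources used here. ComBat, a batch correction, is named in the methods for the 3 replicates, and whether the deposited values include it is not stated. Quantile normalization gives arrays equal distributions, so a shift of most genes cannot be seen. Apart from that step, differences of dim probe sets such as C2, near background, can be compressed. After 104 controls were removed from 45141 probe sets, 45037 were tested. By the platform annotation 28898 name 1 gene, 551 several and 15588 none. A pair of probe sets that the published lists assign to C2 has no symbol there and was not used.

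Groups came from the deposited labels. limma 3.58.1 in R 4.3.3 (lmFit, eBayes) was fitted to all 45037 probe sets with 3 groups and a block for the replicate number, since the methods treat the replicates as a batch, and p-values were adjusted by Benjamini-Hochberg over all of them at 0.05. The members, gene lists and rules were chosen with earlier results of these data known. The brightest probe set stood for a gene in lists, and up to 4 list genes per comparison with the smallest p, with the 5 genes most like C1qb and C2, were named. Exact permutation tests were two-sided and took no account of the replicate number, and 3 arrays against 3 cannot give less than 0.1. The background limit is the 95th percentile of 40 nonspecific control probe sets. The fit was tested on simulated data. Alternatives were no block, only the groups compared, a second quantile normalization, centring, brighter probe sets only, an intensity trend with the robust option, array weights, a threshold of 0.1, probe set means and each array left out, and covariate fits were chosen with the data in view. Precision is limited by the number of arrays.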

Additional observations from a re-analysis of the deposited data

How the results depend on the processing

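None of the 11 complement probe sets passed the adjusted p of 0.05 in any of the 4 comparisons under any alternative that tested it. Over all probe sets, limma without the replicate block gave 54 calls at 1 mg/kg, 115 at 10 mg/kg and 207 for both MPH groups, compared with 0 with it. Arrays of the same replicate number tended to deviate in opposite directions, with correlations of -0.626 to -0.132 compared with -0.035 to 0.442 between other numbers. Negative correlations would also follow from a batch correction over the replicates, and whether one is in the values was not tested. The block is kept only because of the correction stated in the methods. If that correction is already in the values, the fit without the block overstates its degrees of freedom. The intensity trend with the robust option gave 2, 1 and 3 calls, an adjusted p of 0.1 gave 1 for both MPH groups, and leaving out each array gave 0 to 1 in each comparison with saline. The differences of C2 and of C3ar1 probe set 1419482_PM_at from saline kept their direction in each alternative that gave a value.

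The directions that turned were of differences that passed no test, and the cause was not tested. With array weights C5ar1 (1422190_PM_at) at 10 mg/kg was 0.00039, and between the doses C1qb was 0.0012 and C2 was -0.087. Centred on the median, C2 between the doses was -0.0034. With probe sets averaged, C3ar1 was -0.11 at 10 mg/kg and -0.12 for both groups, and C5ar1 was 0.049 and 0.0087. With the fibroblast covariate, C1qa was 0.030 and C3ar1 (1442082_PM_at) 0.033 at 1 mg/kg. At 10 mg/kg that probe set was 0.012, C5ar1 (1439902_PM_at) -0.046 and Serping1 -0.30, C2 between the doses was -0.11, and for both groups C3ar1 (1442082_PM_at) was 0.023 and Serping1 -0.11. With the microglia covariate C1qa was 0.0018 at 1 mg/kg, C5ar1 (1439902_PM_at) -0.0032 and Serping1 -0.13 at 10 mg/kg, and between the doses C1qb was 0.0026 and C2 -0.11.

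With each array left out, the 1 mg/kg differences ran for C1qa from -0.14 to 0.11, C1qc from -0.29 to 0.10, C4b from -0.00091 to 0.37, C3ar1 (1442082_PM_at) from -0.21 to 0.11 and C3ar1 (1419483_PM_at) from -0.083 to 0.0030. At 10 mg/kg they ran for C3ar1 (1442082_PM_at) from -0.29 to 0.027, C5ar1 (1422190_PM_at) from -0.12 to 0.049, C5ar1 (1439902_PM_at) from -0.029 to 0.19, C4b from -0.15 to 0.22 and Serping1 from -0.20 to 0.94. For both groups they ran for C1qa from -0.23 to 0.015, C3ar1 (1442082_PM_at) from -0.25 to 0.068, C3ar1 (1419483_PM_at) from -0.023 to 0.053 and C4b from -0.075 to 0.29. Between the doses they ran for C1qb from -0.13 to 0.017, C2 from -0.22 to 0.21, C3ar1 (1442082_PM_at) from -0.23 to 0.023, C3ar1 (1419482_PM_at) from -0.017 to 0.15, C5ar1 (1439902_PM_at) from -0.18 to 0.040, Serping1 from -0.73 to 0.41 and the neighbour Tnxb from -0.037 to 0.38.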
